A study of Mus musculus with 12 samples.

Results

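The genes described here are the mouse Wnt ligands, their Frizzled and Lrp5 or Lrp6 receptors, the secreted Frizzled-related proteins and the R-spondins. They were taken by gene name from the array annotation, which gave 39 genes of the 27548 gene names on the array. The set held 19 Wnt ligands, 12 receptors (10 Frizzled genes with Lrp5 and Lrp6), 4 secreted Frizzled-related inhibitors and 4 R-spondins, read by 53 probes. The rule uses gene names and no measured value.

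The study sorted cells of gastrulating CD-1 mouse embryos at embryonic day 7.5 by 2 surface proteins, Endoglin (a TGF-beta co-receptor encoded by Eng) and Flk1 (a VEGF receptor encoded by Kdr), and compared the 4 resulting fractions on expression arrays. The fractions were negative for both proteins (Eng-Flk1-), positive for Flk1 only (Eng-Flk1+), positive for both (Eng+Flk1+) and positive for Endoglin only (Eng+Flk1-). All were sorted from a single pool of about 300 whole embryos from 25 litters, with 3000 cells per sample and 3 samples per fraction. Their RNA was amplified by a global PCR method before labelling, and each of the 12 one-colour arrays read 1 sample. The 3 samples of a fraction came from the same pool, so p-values measure the spread between sorted aliquots, amplifications and arrays. Fewer cells of a type and less RNA per cell cannot be told apart in such bulk samples.

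Wnt proteins are lipid-modified secreted ligands that bind a Frizzled receptor together with the co-receptor Lrp5 or Lrp6. In the canonical branch this stabilises beta-catenin, which enters the nucleus and acts with Tcf and Lef factors. Secreted Frizzled-related proteins hold Wnt ligands outside the cell, whereas R-spondins strengthen the signal by keeping Frizzled receptors at the surface. In the gastrulating mouse embryo, Wnt3 is required for the primitive streak to form, and Wnt antagonists made by the anterior visceral endoderm restrict the signal to the posterior side.

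Levels are given as log2 of the background-corrected signal minus the log2 of that array's 75th percentile, so that 0 is the 75th percentile of the array. Levels of different genes come from different probes and are not compared with each other. The sorting marker Kdr followed the labels, with 0.90 to 1.96 on the 6 Flk1-positive arrays and -7.28 to -3.27 on the 6 Flk1-negative ones, a log2 difference of 7.16 ± 0.68 (SE, limma adjusted p = 0.000914). Eng itself averaged 1.29 on the Endoglin-positive arrays and 0.00 on the Endoglin-negative ones, with overlapping arrays, and did not pass (log2 difference 1.29 ± 0.49, adjusted p = 0.432). The 3 Eng-Flk1- arrays stood apart, with 66.5% to 76.3% of spots well above background against 80.2% to 83.3% on the other 9. Their pairwise correlations were 0.674 to 0.720 against 0.812 to 0.912 in the other fractions. Slide 1 held the 3 Eng-Flk1- arrays and Eng-Flk1+ replicate 1. Slide 2 held Eng-Flk1+ replicates 2 and 3 with Eng+Flk1+ replicates 1 and 2. Slide 3 held Eng+Flk1+ replicate 3 with the 3 Eng+Flk1- arrays. The Endoglin comparison could therefore be made within slide 2 only, and slides 1 and 3 each held a single Endoglin status.

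A gene was tested where every array of 1 or more fractions read it well above background, which held for 36 of the 39 genes among 22720 genes in all. These were 17 ligands, all 12 receptors, all 4 inhibitors and 3 R-spondins, and 27 of them passed that mark on all 12 arrays. Wnt2, Wnt10a and Rspo2 did not reach this in any fraction and were not tested.

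No Wnt gene differed between the fractions at an adjusted p under 0.05 (limma, Benjamini-Hochberg over all 22720 genes), whether over the 4 fractions together or in any of 7 comparisons between them. Of all genes, 2.02% passed over the 4 fractions, 1.22% between Flk1-positive and Flk1-negative cells, 0.282% between Endoglin-positive and Endoglin-negative cells and 0.273% for the interaction of the sorting markers. In the pairwise comparisons 0.0264% passed for Eng+Flk1+ against Eng-Flk1+, 1.45% for Eng+Flk1- against Eng-Flk1-, 1.91% for Eng-Flk1+ against Eng-Flk1- and 0.295% for Eng+Flk1+ against Eng+Flk1-. At these shares fewer than 1 of 36 genes would be called in each comparison, so the count of 0 does not set the Wnt genes apart from the array as a whole.

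At an unadjusted p under 0.05, 6 of the 36 genes (16.7%) differed over the 4 fractions, against 13.6% of all genes. Between Endoglin-positive and Endoglin-negative cells 7 of 36 (19.4%) passed that looser limit, and all 7 had the lower mean in Endoglin-positive cells. These were the ligands Wnt16, Wnt10b, Wnt3 and Wnt8a, the receptor Fzd2 and the inhibitors Sfrp2 and Sfrp1. Of all genes 8.86% passed the same limit, 3.12% lower and 5.74% higher in Endoglin-positive cells. The median log2 difference of the 36 genes was -0.28 with 25 below 0, and that of all genes was 0.02 with 48.8% below 0. With slide as a block, 17 of the 36 were below 0, their median was 0.09 and 0 reached an unadjusted p of 0.05. The direction of the set for Endoglin did not hold in that fit. The count of 7 was 3 without Eng-Flk1+ replicate 3 and 4 on leaving out Eng-Flk1+ replicate 2, the Eng+Flk1+ replicate 1 array, or replicate 2 or 3 of Eng+Flk1-.

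Between Flk1-positive and Flk1-negative cells, 2 of 36 genes (5.56%) reached an unadjusted p under 0.05, Wnt3 higher and Wnt8a lower in Flk1-positive cells, against 11.9% of all genes (7.27% higher and 4.66% lower). Lrp6, Wnt3 and Fzd4 were higher, and Wnt8a, Wnt10b, Wnt4 and Lrp5 lower, at that limit in Eng-Flk1+ against Eng-Flk1- cells (7 of 36, 19.4%, against 17.7% of all genes, 9.68% higher and 8.03% lower). In Eng+Flk1- against Eng-Flk1- cells 5 of 36 (13.9%) reached it, against 14.4% of all genes. In Eng+Flk1+ against Eng-Flk1+ cells 6 of 36 (16.7%) did, against 4.78% of all genes. Of the 6, 5 were lower in Eng+Flk1+ cells, as were 2.39% of all genes. The count was 7 with quantile normalization and 8 with array quality weights or without the 3 Eng-Flk1- arrays. The count became 0 on leaving out Eng-Flk1+ replicate 3 and 2 on leaving out Eng+Flk1+ replicate 2. It was 3 when Eng-Flk1+ replicate 1 or 2, any other Eng+Flk1+ array or Eng+Flk1- replicate 3 was left out, and 3 with slide as a block. For the interaction 4 of 36 (11.1%) did, against 10.5% of all genes, and in Eng+Flk1+ against Eng+Flk1- cells 0 of 36 did, against 6.59% of all genes. The other counts moved too. The 7 for Eng-Flk1+ against Eng-Flk1- were 3 without Eng-Flk1+ replicate 1 or 3, and the 6 over the 4 fractions were 3 without Eng-Flk1+ replicate 3. The 4 for the interaction were 1 on leaving out replicate 1 or 3 of Eng-Flk1+, replicate 1 of Eng+Flk1+ or replicate 3 of Eng+Flk1-, and 2 without Eng+Flk1- replicate 1 or 2. The 2 for Flk1 were 4 without Eng-Flk1- replicate 2 and 1 on leaving out replicate 1 of Eng-Flk1+ or of Eng+Flk1+, or replicate 1 or 3 of Eng+Flk1-. In the authors' table the counts were 12 over the 4 fractions, 12 for Eng-Flk1+ and 11 for Eng+Flk1- against Eng-Flk1-. They were 10 for the interaction and 4 for Flk1. The median of all genes moved there too. It was -0.73 for Eng-Flk1+ and -0.63 for Eng+Flk1- against Eng-Flk1-, 0.71 for the interaction and -0.40 for Flk1. In the main fit these medians were -0.13, -0.06, 0.14 and -0.09. With slide as a block the Wnt counts were 1, 4, 0, 1 and 1. The shares of all genes at this limit were not counted in either setting.

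**Figure D1:**
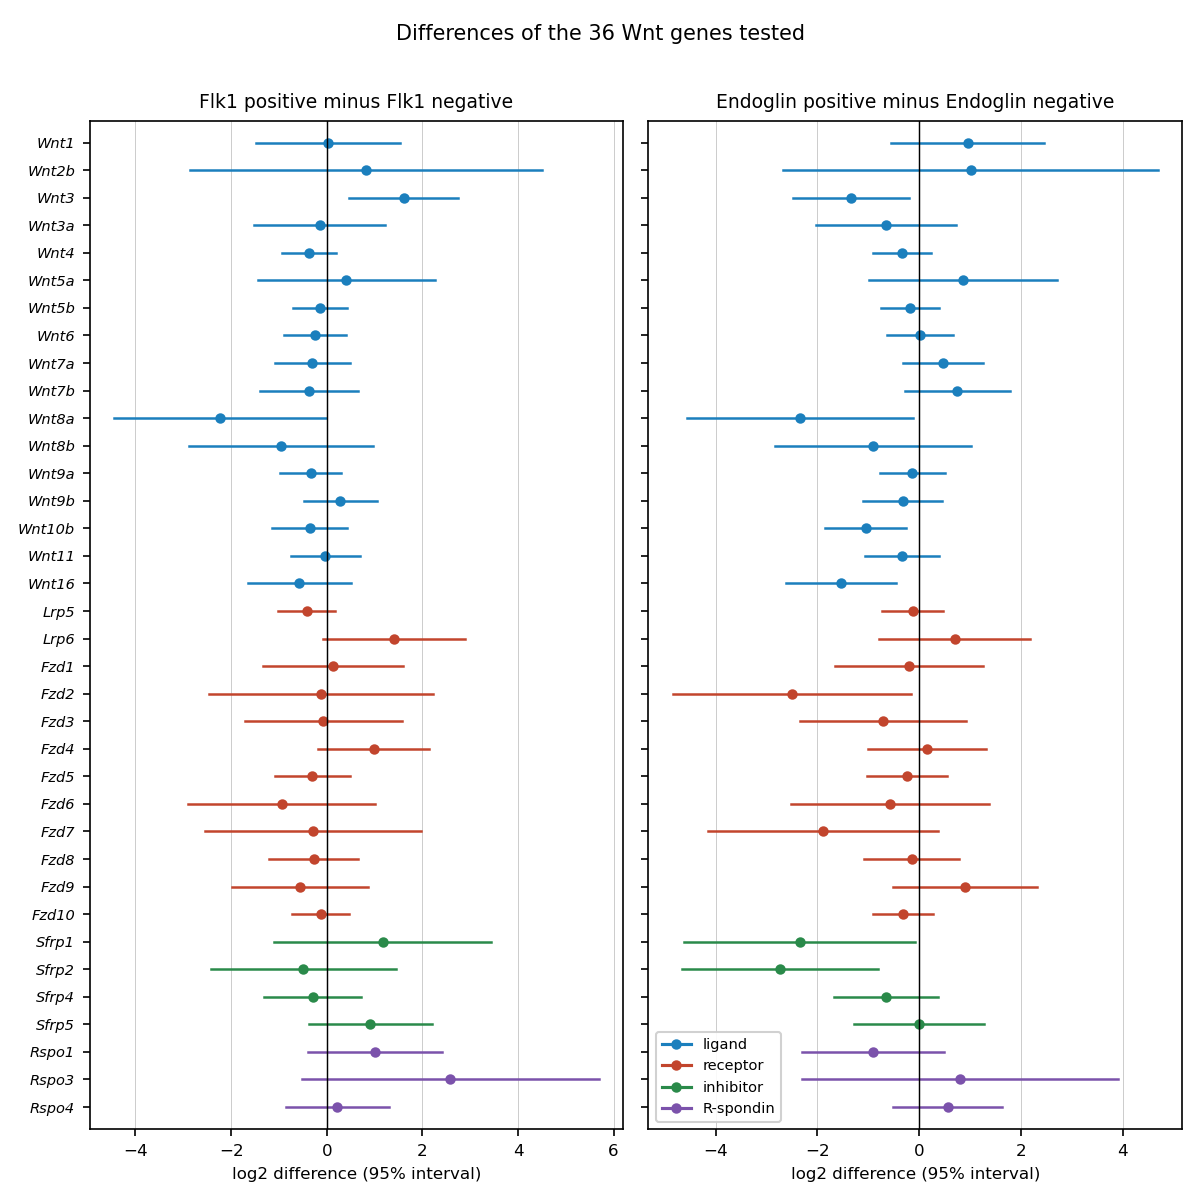
Log2 differences (points) with 95% confidence intervals (lines) of the 36 Wnt genes tested, Flk1-positive minus Flk1-negative arrays on the left and Endoglin-positive minus Endoglin-negative arrays on the right, coloured by role. Intervals of Wnt4, Wnt5b, Wnt6, Wnt9a, Fzd5, Fzd10 and Lrp5 are narrow and cross 0, whereas those of Wnt2b, Wnt8a, Fzd2, Fzd7 and Rspo3 span several log2 units.

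Among the ligands, 7 of the 17 tested had fraction means within 1 log2 unit (a 2-fold range) of each other, as did 13 of all 36 Wnt genes (36.1%) and 36% of all genes. Wnt5b, a ligand of the beta-catenin-independent branch, lay between 3.48 and 4.34 on the 12 arrays, with fraction means of 3.78 to 4.09. Its 95% confidence intervals were -0.70 to 0.43 for Flk1 and -0.75 to 0.39 for Endoglin, which leaves room for less than a 2-fold difference either way. The second Wnt5b probe, well above background on all 12 arrays too, gave differences of -0.06 and 0.25. Wnt6 was likewise between 3.27 and 4.73 on the 12 arrays, with intervals of -0.90 to 0.41 for Flk1 and -0.64 to 0.67 for Endoglin. This held for the probe tested and not for the second Wnt6 probe, also well above background on all 12 arrays, which ran from -1.92 to 2.36 with differences of -1.21 for Flk1 and 0.77 for Endoglin. Wnt4, Wnt7a, Wnt9a, Wnt9b and Wnt11 were the other ligands with means in this range, with the probes tested. Wnt4 was nonetheless at 1.86 to 2.08 on the Eng-Flk1- arrays and at 0.87 to 1.68 on all others. The second Wnt9a probe, well above background on 9 arrays, had fraction means of -6.08 to -4.76.

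Wnt3, the ligand needed for primitive streak formation, had its highest levels in cells positive for Flk1 only. Its levels were -4.00, -5.51 and -4.88 in Eng-Flk1-, -3.38, -2.06 and -1.58 in Eng-Flk1+, -5.77, -3.07 and -4.75 in Eng+Flk1+, and -5.35, -5.48 and -5.02 in Eng+Flk1-. All 3 Eng-Flk1+ arrays were above all Eng-Flk1- and all Eng+Flk1- arrays, but Eng+Flk1+ replicate 2 lay within their range. The mean was 2.46 ± 0.73 log2 units (SE), or 5.50-fold, higher in Eng-Flk1+ than in Eng-Flk1- cells, which did not pass (limma adjusted p = 0.132). The difference of Eng+Flk1+ from Eng-Flk1+ cells was -2.19 ± 0.73 log2 units, with an adjusted p of 0.762. The first of these was 1.42 log2 units with slide as a block, 0.57 with normexp background correction and 0.55 with the mean over its probes (adjusted p = 0.647, 0.388 and 0.746). The array's other Wnt3 probe was well above background on 1 array only. Wnt3a, which acts later in the streak and tail bud, was well above background on no Eng+Flk1+ array and on all 3 Eng+Flk1- arrays. On these arrays the Eng+Flk1- mean was at least 1.83-fold higher, a bound without sampling error, and the difference did not pass (limma adjusted p = 0.947). The Eng+Flk1- levels of -5.55, -4.39 and -5.84 were near the lowest levels read well above background there (-6.14, -5.67 and -6.44).

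Wnt8a, a ligand of the posterior epiblast and streak, was high on Eng-Flk1- replicates 2 and 3 and on no other array. Its levels were -1.52, 4.64 and 4.69 in Eng-Flk1-, -2.44, -2.28 and -0.38 in Eng-Flk1+, -2.05, -0.94 and -2.94 in Eng+Flk1+, and -1.64, -1.89 and -1.92 in Eng+Flk1-. Eng-Flk1- replicate 1 thus lay with the 9 arrays of the other fractions, and the SD within that fraction was 3.57. The log2 difference from Eng-Flk1- cells was -4.42 ± 1.42 for Eng+Flk1- and -4.30 ± 1.42 for Eng-Flk1+ cells, neither past the limit (limma adjusted p = 0.185 and 0.172). Without Eng-Flk1- replicate 1 the same differences were -6.48 ± 0.73 and -6.37 ± 0.73, with adjusted p of 0.00279 and 0.00271. The call then rested on 2 Eng-Flk1- arrays. On slide 1 alone the difference of the single Eng-Flk1+ array from the mean of the 3 Eng-Flk1- arrays was -5.04.

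Wnt10b had its highest levels in the fraction negative for both markers, with a tighter spread than Wnt8a. Its levels were 0.01, 0.33 and -1.05 in Eng-Flk1-, -1.88, -1.13 and -1.32 in Eng-Flk1+, -1.65, -0.95 and -2.35 in Eng+Flk1+, and -2.35, -1.92 and -2.15 in Eng+Flk1-. Arrays of Eng-Flk1- did not overlap those of Eng-Flk1+ or Eng+Flk1-, and replicate 3 alone lay within the range of Eng+Flk1+. The log2 difference of Eng+Flk1- from Eng-Flk1- cells was -1.90 ± 0.50, a 3.74-fold lower mean, outside the limit (limma adjusted p = 0.107). This passed in the authors' deposited table (adjusted p = 0.0332) and without Eng-Flk1- replicate 3 (difference of -2.31 ± 0.48, adjusted p = 0.0470). In 19 of 21 alternative fits, slide as a block among them, it did not pass, and these fractions shared no slide. In the authors' table the median of all genes in this pair was -0.63, against -0.06 in the main fit.

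Wnt16 was lower on the Endoglin-positive arrays than on most Endoglin-negative ones. Its levels were -0.83, -1.21 and -3.43 in Eng-Flk1-, -3.10, -2.82 and -1.72 in Eng-Flk1+, -3.95, -3.32 and -4.52 in Eng+Flk1+, and -3.72, -3.63 and -3.16 in Eng+Flk1-. The 6 Endoglin-positive arrays spanned -4.52 to -3.16, and Eng-Flk1- replicate 3 was the only Endoglin-negative array inside that range. The Endoglin difference was -1.53 ± 0.49 log2 units, or 2.89-fold, and did not pass (limma adjusted p = 0.317). It was -1.5 with slide as a block and -1.01 with normexp, and the difference of Eng+Flk1+ from Eng-Flk1+ within slide 2 was -1.37.

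A few ligands outside these were singled out after their values were seen, because 1 array of a fraction stood far from the others. Wnt1 was at 0.63 on Eng+Flk1+ replicate 2 and between -4.66 and -2.46 on the other 11 arrays. Wnt8b, which is best known from the forebrain, was at 0.10 on the same array and at -3.44 and -3.66 on the other 2 Eng+Flk1+ arrays, with 2.14 on Eng-Flk1- replicate 2. Wnt2b ranged from -7.06 to 2.67, with its highest level on Eng-Flk1- replicate 1 and a pooled within-fraction SD of 3.27. Wnt5a, a ligand of the beta-catenin-independent branch, was at -3.33 to -3.06 on the Eng-Flk1- arrays, while Eng+Flk1- replicates 2 and 3 had the highest levels, 0.92 and 0.44, and replicate 1 the lowest, -3.84.

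**Figure D2:**
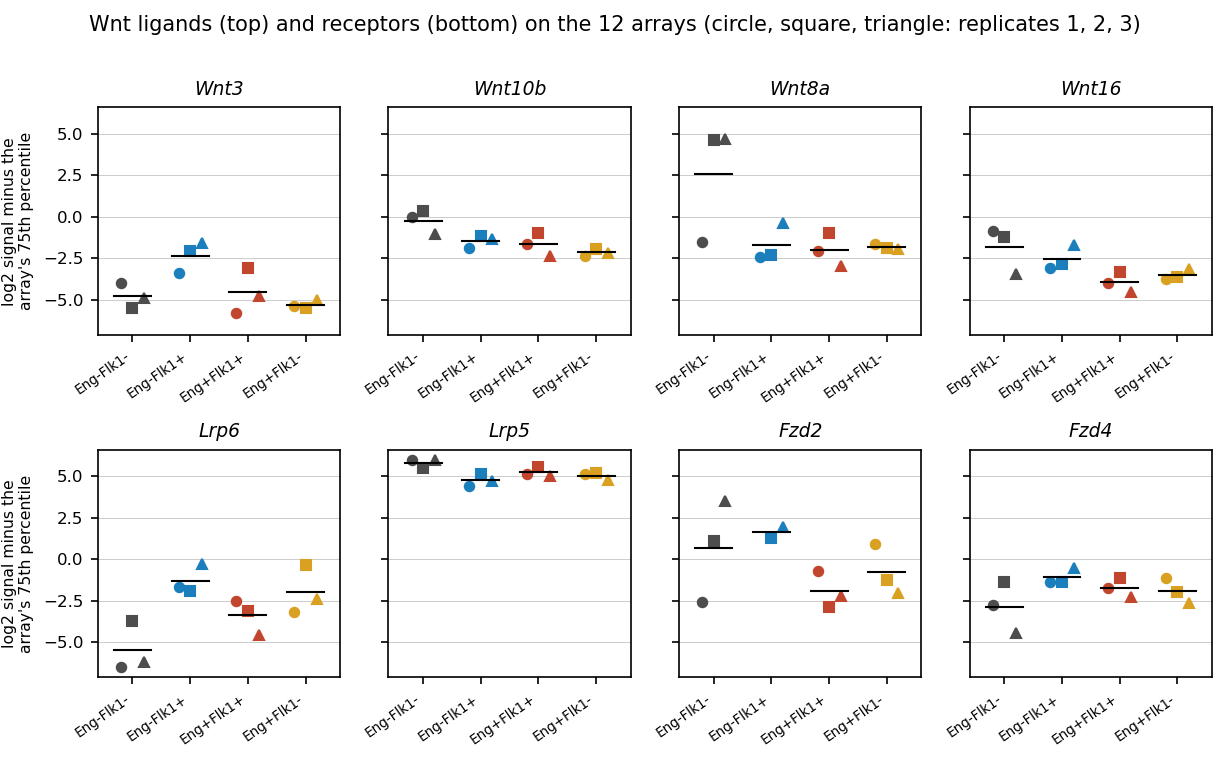
Levels of the 4 ligands (top row) and 4 receptors (bottom row) with the lowest p over the 4 fractions, as log2 signal minus the array's 75th percentile (y axis) by fraction (x axis), with 1 symbol per array (circle, square and triangle for replicates 1, 2 and 3) and a bar at the fraction mean. Wnt8a is high on Eng-Flk1- replicates 2 and 3 only, at 4.64 and 4.69, and Lrp6 is lowest in Eng-Flk1-, at -6.49 to -3.74.

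Among the receptors, the co-receptors Lrp5 and Lrp6 had fraction means in opposite order. Lrp6 had levels of -6.49, -3.74 and -6.20 in Eng-Flk1-, -1.67, -1.87 and -0.28 in Eng-Flk1+, -2.48, -3.08 and -4.56 in Eng+Flk1+, and -3.18, -0.36 and -2.39 in Eng+Flk1-. Its signal stood well above background on all 9 arrays of the other fractions but on 1 array in Eng-Flk1-. No Eng-Flk1+ array overlapped those of Eng-Flk1-, and no Eng+Flk1- array did. The mean was 4.20 ± 0.95 log2 units higher in Eng-Flk1+ than in Eng-Flk1- cells, the lowest adjusted p among the Wnt genes in any comparison (limma, 0.0546). It was 3.50 ± 0.95 log2 units higher in Eng+Flk1- than in Eng-Flk1- cells (adjusted p = 0.116), and the interaction was -5.60 ± 1.34 (adjusted p = 0.147). The Eng+Flk1+ mean of -3.37 lay below the means of both single-marker fractions, -1.27 and -1.98.

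The size of these differences rests on Eng-Flk1- levels at background, since -6.49 and -6.20 lie below the lowest levels read well above background on those arrays (-5.74 and -5.10). With normexp background correction the difference of Eng-Flk1+ from Eng-Flk1- was 1.53 log2 units (adjusted p = 0.185).

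The Lrp6 difference between Eng-Flk1+ and Eng-Flk1- did not pass in 17 of 20 alternative fits. The adjusted p was 0.0158 without Eng-Flk1- replicate 2 and 0.0456 without Eng+Flk1- replicate 2, 0.0431 with the mean over a gene's probes, and 0.485 with slide as a block. The difference was 5.07, 4.20, 4.20 and 3.81 log2 units in these fits. With each probe tested by itself, 2.61% of 33134 probes passed in this comparison and the Lrp6 probe was the only Wnt probe among them (adjusted p = 0.0472). Among the alternatives to that per-probe fit, its call held only without Eng-Flk1- replicate 2 or without Eng+Flk1- replicate 1 or 2. With slide as a block the per-probe limma adjusted p was 0.446.

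Lrp5 had levels of 5.96, 5.49 and 5.97 in Eng-Flk1-, 4.44, 5.16 and 4.71 in Eng-Flk1+, 5.16, 5.59 and 5.04 in Eng+Flk1+, and 5.14, 5.22 and 4.81 in Eng+Flk1-. Each Eng-Flk1- array was above every Eng-Flk1+ and Eng+Flk1- array, whereas Eng+Flk1+ overlapped. The difference of Eng-Flk1+ from Eng-Flk1- cells was -1.04 ± 0.38 log2 units, or 2.06-fold (limma adjusted p = 0.207). It was -0.45 with quantile normalization and -1.64 in the authors' table. Averaged over the other marker, the interval of the Lrp5 difference was -1.01 to 0.18 for Flk1 and -0.73 to 0.47 for Endoglin.

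Of the Frizzled genes, Fzd4, a receptor for Norrin as well as Wnt, had levels of -2.74, -1.34 and -4.46 in Eng-Flk1-, -1.36, -1.33 and -0.55 in Eng-Flk1+, -1.71, -1.13 and -2.28 in Eng+Flk1+, and -1.13, -1.97 and -2.62 in Eng+Flk1-. The arrays of all 4 fractions overlapped. The mean was 1.77 ± 0.74 log2 units higher in Eng-Flk1+ than in Eng-Flk1- cells (limma adjusted p = 0.254), 0.96 without Eng-Flk1- replicate 3 and 0.84 with normexp. With the probes tested, Fzd3, Fzd5, Fzd8 and Fzd10 had fraction means within 1 log2 unit of each other. Fzd5 lay between 1.71 and 3.78 and Fzd10 between -0.08 and 1.38 on the 12 arrays. The second Fzd5 probe, well above background on all 12 arrays too, had fraction means of 0.66 to 1.85. The second Fzd3 probe, well above background on 7 arrays, had fraction means of -5.97 to -3.24. Fzd6 and Fzd9, singled out after their values were seen, each had 1 high array, Fzd6 at 1.93 on Eng-Flk1- replicate 1 and Fzd9 at 1.65 on Eng+Flk1- replicate 3. Fzd6 was at -4.17 to -2.38 and Fzd9 at -2.99 to -1.78 on the remaining 11.

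Fzd2 and Fzd7 gave similar patterns over the arrays. Fzd2 had levels of -2.55, 1.1 and 3.54 in Eng-Flk1-, 1.31 and 1.97 on Eng-Flk1+ replicates 2 and 3, -0.71, -2.84 and -2.22 in Eng+Flk1+, and 0.95, -1.22 and -1.99 in Eng+Flk1-. Its spot on Eng-Flk1+ replicate 1 was marked as an outlier by the scanner software and was left out of the fit. Fzd7 had levels of -3.35, 1.64 and 3.32 in Eng-Flk1-, 0.74, 0.32 and 1.23 in Eng-Flk1+, -0.13, -3.63 and -1.16 in Eng+Flk1+, and -0.47, -0.59 and -1.45 in Eng+Flk1-. Both were next to lowest on Eng-Flk1- replicate 1 and highest on Eng-Flk1- replicate 3. The Endoglin difference was -2.51 ± 1.04 log2 units for Fzd2 and -1.89 ± 1.02 for Fzd7, and neither passed (limma adjusted p = 0.516 and 0.659).

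The probes that read Fzd2 and Fzd7 are shown because they are the most alike of any of the 1364 pairs of probes of different Wnt genes that were compared. Aligned without gaps, they match at 42 of 50 overlapping bases (84.0%), and the next pair, Fzd7 with Fzd8, matches at 33 of 48 (68.8%). The Fzd2 probe lies at chr11:102422389-102422448 and the Fzd7 probe at chr1:59429069-59429128, both on the plus strand of mm8 as the array annotation gives them. Capitals mark the bases that match, 5′ to 3′.
Fzd2: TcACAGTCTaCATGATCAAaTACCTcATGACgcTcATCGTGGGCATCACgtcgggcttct
Fzd7: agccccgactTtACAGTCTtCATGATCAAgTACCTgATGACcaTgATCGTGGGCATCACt
Whether either probe also bound the other gene's cDNA was not tested. Each gene has a second probe elsewhere. The second Fzd7 probe gave levels of -4.63, 1.28 and 3.62 in Eng-Flk1- and 0.52, 0.55 and 0.62 in Eng-Flk1+, close to the first. The second Fzd2 probe was well above background on 3 arrays only, too few to compare its pattern with that of the first. Its Endoglin difference was -2.45, against -2.51 for the first, but its Flk1 difference was 3.43, against -0.11 for the first.

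**Figure D3:**
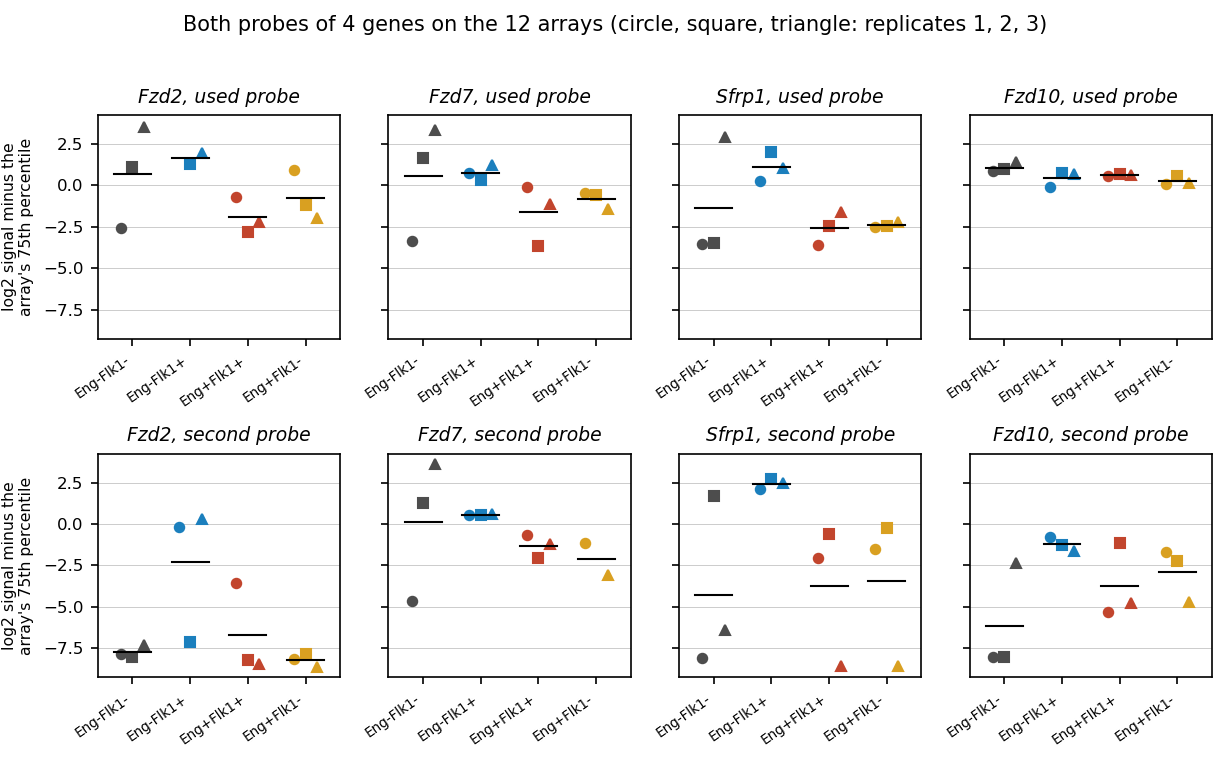
Levels of both probes of Fzd2, Fzd7, Sfrp1 and Fzd10 on the 12 arrays, as log2 signal minus the array's 75th percentile (y axis) by fraction (x axis), the probe used in the tests above and the second probe below, with a bar at the fraction mean. The probes of Fzd7 follow each other, whereas the second Fzd2 probe was well above background on 3 arrays only and the second Fzd10 probe on 10. A missing symbol is a spot left out as an outlier.

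The 4 secreted Frizzled-related inhibitors had Endoglin differences at or below 0, none past the limit. Sfrp2 had levels of -0.82, 1.68 and 2.21 in Eng-Flk1-, -1.09, -0.05 and -0.56 in Eng-Flk1+, -0.87, -1.31 and -4.38 in Eng+Flk1+, and -0.54, -3.07 and -4.82 in Eng+Flk1-. Only Eng+Flk1+ replicate 1 and Eng+Flk1- replicate 1 overlapped the Endoglin-negative arrays. The Endoglin difference was -2.73 ± 0.87 log2 units, a 6.63-fold lower mean in Endoglin-positive cells (limma adjusted p = 0.319). It was -1.06 with slide as a block.

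Sfrp1 was between 0.24 and 2.02 on the 3 Eng-Flk1+ arrays and lower on 8 of the other 9. Its levels were -3.57, -3.50 and 2.93 in Eng-Flk1-, 0.24, 2.02 and 1.07 in Eng-Flk1+, -3.62, -2.48 and -1.59 in Eng+Flk1+, and -2.52, -2.48 and -2.22 in Eng+Flk1-. The exception was Eng-Flk1- replicate 3. The difference of Eng+Flk1+ from Eng-Flk1+ cells was -3.67 ± 1.45 log2 units, without overlap between their arrays (limma adjusted p = 0.934). Without Eng-Flk1- replicate 3, Sfrp1 was 4.65 ± 0.66 log2 units higher in Eng-Flk1+ than in Eng-Flk1- cells (adjusted p = 0.00918) and 2.24 ± 0.44 higher in Flk1-positive than in Flk1-negative cells (adjusted p = 0.0401).

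The second Sfrp1 probe also had its highest mean in Eng-Flk1+ cells. It gave 2.09, 2.71 and 2.50 in Eng-Flk1+, where it was well above background on all 3 arrays, and fraction means of -4.25, -3.75 and -3.44 elsewhere with SDs of 4.24 to 5.21. The probes disagreed on the Eng-Flk1- arrays, since the first was high on replicate 3 (2.93, against -6.38 for the second) and the second on replicate 2 (1.69, against -3.50 for the first). The Eng-Flk1+ mean of the second probe was 6.68 ± 2.89 log2 units above that of Eng-Flk1- (limma adjusted p = 0.257 with each probe tested by itself). The second Fzd10 probe was 4.91 ± 1.57 log2 units higher in Eng-Flk1+ than in Eng-Flk1- cells (adjusted p = 0.144), where the difference of the first probe was -0.63.

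Sfrp4 and Sfrp5 varied less, but Sfrp5 levels lie partly at background. Sfrp5 was well above background on 7 arrays only, 1 of them in Eng-Flk1- and 1 in Eng+Flk1-. Sfrp4 had levels of -0.39, -2.68 and -0.77 in Eng-Flk1-, -1.18, -2.12 and -2.25 in Eng-Flk1+, -2.20, -1.49 and -3.03 in Eng+Flk1+, and -1.89, -2.20 and -2.56 in Eng+Flk1-. Sfrp5, known from the anterior endoderm, had levels of -4.69, -6.47 and -7.13 in Eng-Flk1-, -4.86, -4.92 and -5.28 in Eng-Flk1+, -5.82, -3.43 and -6.33 in Eng+Flk1+, and -5.94, -6.63 and -5.25 in Eng+Flk1-. The arrays of all 4 fractions overlapped for both genes. The Endoglin difference was -0.66 ± 0.46 for Sfrp4 and -0.01 ± 0.58 for Sfrp5 (limma adjusted p = 0.758 and 0.998).

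**Figure D4:**
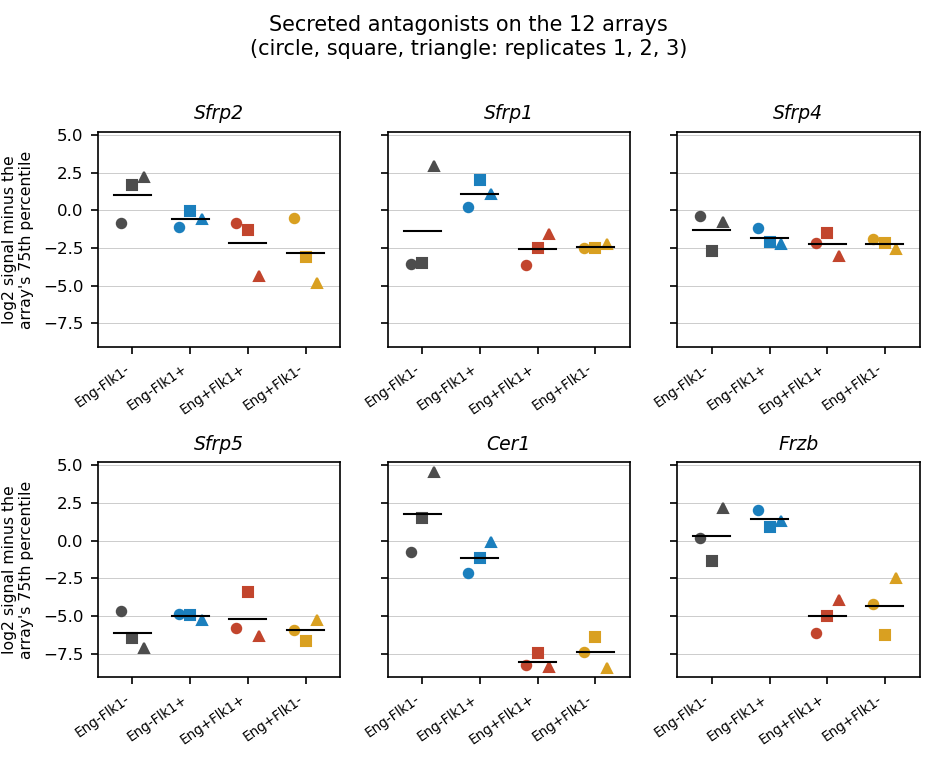
Levels of the 4 secreted Frizzled-related inhibitors and of the antagonists Cer1 and Frzb, as log2 signal minus the array's 75th percentile (y axis) by fraction (x axis), with 1 symbol per array (circle, square and triangle for replicates 1, 2 and 3) and a bar at the fraction mean. Cer1 and Frzb are lower on all 6 Endoglin-positive arrays than on all 6 Endoglin-negative ones, whereas the arrays of Sfrp1, Sfrp2, Sfrp4 and Sfrp5 overlap.

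The 3 R-spondins tested did not pass for Flk1. Their means were higher in Flk1-positive cells with the probes tested, but for Rspo4 the second probe, well above background on all 12 arrays too, turned the difference to -0.14. Rspo3, needed for placental and vascular development, had levels of -7.88, 2.32 and -2.23 in Eng-Flk1-, 0.55, -0.94 and 0.83 in Eng-Flk1+, 0.47, 0.94 and 0.95 in Eng+Flk1+, and 0.24, -3.37 and -1.79 in Eng+Flk1-. Flk1-positive arrays lay between -0.94 and 0.95, whereas Flk1-negative arrays ranged from -7.88 to 2.32. The Flk1 difference was 2.58 ± 1.40 (limma adjusted p = 0.5). It was 1.26 without Eng-Flk1- replicate 1, 1.28 with normexp and 0.75 for the second Rspo3 probe.

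Rspo1 had levels of -2.17, -4.38 and -4.10 in Eng-Flk1-, -0.85, -3.72 and -1.66 in Eng-Flk1+, -3.22, -4.49 and -2.63 in Eng+Flk1+, and -3.10, -3.88 and -5.03 in Eng+Flk1-. Rspo4 had levels of -2.26, -2.82 and -3.12 in Eng-Flk1-, -2.79, -2.40 and -2.14 in Eng-Flk1+, -0.57, -1.75 and -3.54 in Eng+Flk1+, and -2.02, -1.52 and -2.78 in Eng+Flk1-. The arrays of the fractions overlapped for both. Their Flk1 differences were 1.01 ± 0.63 and 0.22 ± 0.49 (limma adjusted p = 0.562 and 0.885).

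The spread within Eng-Flk1- limited what could be seen. An SD above 1.5 log2 units in that fraction was found for 13 of the 36 Wnt genes (36.1%) and 34.3% of all genes, among them 7 of the 12 receptors. The median SD of the Wnt genes was 1.15 there and 0.47 to 0.65 in the other fractions, against 1.01 and 0.56 to 0.67 over all genes. Eng-Flk1- replicate 1 was the lowest of its fraction for some genes, among them Wnt8a, Fzd2, Fzd7, Sfrp2 and Rspo3. The same array was the highest of its fraction for Wnt2b, Wnt3, Wnt16, Fzd1, Fzd6, Fzd8, Fzd9, Sfrp4, Sfrp5, Rspo1 and Rspo4.

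Some marker genes of other cell types were higher in this fraction. For 8 visceral endoderm markers, the linear signal relative to the array's 75th percentile was summed. It was 34.1 to 174.5 on the Eng-Flk1- arrays and 1.85 to 4.81 on the other 9. On every array 6 to 8 of these markers were well above background. The sum rested mostly on Apoa4 and Apoa1, at log2 levels of 6.36 and 6.08 on Eng-Flk1- replicate 3. Ttr, Apoa1, Apoa4 and Cubn passed over the 4 fractions, whereas Amn, Rbp4 and Sox17 did not and Afp was not tested. The sum of 5 epiblast and neuroectoderm markers was 25.9 to 67.1 against 3.67 to 11.7. Of these, Utf1 had a higher mean in Eng+Flk1- (2.23) than in Eng-Flk1- cells (1.32). The sum of 5 primitive erythroid markers was 22.3 to 40.5 on the Eng-Flk1- arrays and 1.00 to 15.1 on the other 9. Of these, the globins Hbb-bh1, Hba-x and Hbb-y had higher means in Eng-Flk1- than in Eng+Flk1- cells. Gata1 (-2.63 against -1.34) and Klf1 (-2.39 against 1.22) had lower ones. The 5 markers had mean log2 levels of 1.41, -0.12 and -1.31 on the Eng-Flk1- arrays and -0.505, 0.97 and -0.12 on the Eng+Flk1- arrays. The sum of 6 streak and nascent mesoderm markers was 45.7 on Eng-Flk1- replicate 3 and 1.46 to 5.08 on the other 11 arrays. That sum was mostly Msgn1, a presomitic mesoderm factor, at a log2 level of 5.38. The mean log2 level of the 6 markers on that array, -1.04, was below that of Eng+Flk1- replicate 1, -0.94. The part of these cell types in the Wnt values of Eng-Flk1- cells was not tested.

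Beyond the family itself, a list of 60 Wnt pathway genes (other secreted antagonists, other receptors, secretion factors, cytoplasmic and nuclear components and response genes) was examined, of which 56 were tested. Over the 4 fractions 4 of 56 (7.14%) passed, against 2.02% of all genes. These were the secreted antagonists Cer1 and Frzb and the response genes Id2 and Cdx2. None of the 13 cytoplasmic, 8 nuclear, 11 other receptor or 2 secretion genes tested passed in any comparison (limma, at an adjusted p of 0.05). At an unadjusted p under 0.05, 13 of the 56 (23.2%) differed over the 4 fractions, against 13.6% of all genes. The list was chosen with earlier results of these data known, so these shares are not independent of the data. Of the 13 response genes tested, only Id2 and Cdx2 passed over the 4 fractions. Axin2, Sp5, T and Nkd1 did not (limma adjusted p = 0.718, 0.843, 0.832 and 0.470).

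Cer1, a secreted antagonist of Wnt, Nodal and BMP made by the anterior endoderm, fell in Endoglin-positive cells. Its levels were -0.74, 1.52 and 4.55 in Eng-Flk1-, -2.16, -1.18 and -0.06 in Eng-Flk1+, -8.24, -7.46 and -8.39 in Eng+Flk1+, and -7.39, -6.37 and -8.42 in Eng+Flk1-. It was well above background on all 6 Endoglin-negative arrays and on none of the 6 Endoglin-positive ones. Its mean was therefore at least 86.2-fold higher in Endoglin-negative cells (limma adjusted p = 0.00612), and at least 232.2-fold higher in Eng-Flk1- than in Eng+Flk1- cells (adjusted p = 0.00436, with 0.224% of all genes lower in that pair). With normexp background correction the Endoglin difference was -3.69 log2 units, smaller than that bound, and did not pass (adjusted p = 0.0891). With slide as a block it was -8.71 log2 units (adjusted p = 0.939).

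Frzb, a secreted Frizzled-related antagonist whose name lies outside the family rule, fell in the same comparison. Its levels were 0.15, -1.35 and 2.17 in Eng-Flk1-, 2.00, 0.89 and 1.31 in Eng-Flk1+, -6.14, -5.0 and -3.92 in Eng+Flk1+, and -4.21, -6.26 and -2.45 in Eng+Flk1-. The arrays of the Endoglin-positive and Endoglin-negative fractions did not overlap, and the difference was -5.53 ± 0.76 log2 units (limma adjusted p = 0.0199), or -3.63 with normexp. Frzb was well above background on all 6 Endoglin-negative and 4 of the 6 Endoglin-positive arrays. Leaving out Eng-Flk1+ replicate 1 or 3, Eng+Flk1+ replicate 1 or Eng+Flk1- replicate 1 took the adjusted p to 0.0679, 0.0600, 0.0550 and 0.0588, and with slide as a block it was 1 at a difference of -6.03. Of the 9 other secreted antagonists tested, Cer1 and Frzb were the only ones that passed for Endoglin, both lower (15 of the 22720 genes, 0.066%, passed in that direction).

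Id2, an inhibitor of helix-loop-helix factors, and Cdx2, a caudal and trophoblast factor, were lowest in cells positive for both markers. Id2 had levels of 0.63, 1.02 and -0.48 in Eng-Flk1- and 0.70, -0.04 and 0.93 in Eng-Flk1+. They were -3.64, -0.74 and -6.04 in Eng+Flk1+ and 3.24, 3.54 and 3.44 in Eng+Flk1-. Id2 fell by 6.88 ± 1.05 log2 units in Eng+Flk1+ against Eng+Flk1- cells (limma adjusted p = 0.0278, with 0.114% of all genes lower in that pair). Its adjusted p was 0.0528 to 0.117 when Eng-Flk1+ replicate 1 or 3, Eng+Flk1+ replicate 1 or any Eng+Flk1- array was left out, and 0.132 with the mean over probes, where the difference was -3.11. Cdx2 had levels of -0.04, -0.49 and 1.53 in Eng-Flk1- and 0.45, -0.99 and -1.13 in Eng-Flk1+. They were -3.36, -6.98 and -3.05 in Eng+Flk1+ and 1.12, 0.73 and 1.49 in Eng+Flk1-. Cdx2 passed over the 4 fractions (limma adjusted p = 0.0437) but not in that pair (adjusted p = 0.0523). In the pair the adjusted p was 0.0129 to 0.0460 with normexp, quantile normalization, the mean over probes, array weights or without Eng-Flk1- replicate 3. Cdx2 is also 1 of the 7 trophoblast markers, whose summed linear signal was 15 to 19.9 on the Eng+Flk1- arrays and 2.59 to 5.99 on the other 9. The part of those cells in the Cdx2 and Id2 values was not tested.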

How the data were processed

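One-colour Agilent arrays were scanned and processed with Agilent Feature Extraction 10.5.1.1, per the file headers, and hold the deposited background-corrected signal intensity of each spot. The deposited flags that mark a spot as well above background or as an outlier are per the file headers too. The authors also deposited a table of intensity divided by each array's median signal, whose ratio to the scanner values was constant within an array.

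Outlier and control spots were left out, log2 intensity minus the array's 75th percentile was averaged per probe, and the brightest probe stood for a gene. A single model over the 12 arrays held each gene that every array of 1 or more fractions read well above background (limma 3.58.1, R 4.3.3; lmFit, eBayes), with Benjamini-Hochberg adjustment over all genes and a limit of 0.05. A bound ("at least") sets the brighter mean against the lowest signal well above background on each array of the dimmer group. The fit was tested on simulated data. No spot was saturated. Precision is limited by 3 arrays per fraction.

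Wnt genes passing any test, or the 4 of each role with the lowest p over the fractions, are given on all arrays, as are pathway genes that passed. Members and lists were chosen with earlier results of these data known. Alternatives are listed in the closing section.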

Additional observations from a re-analysis of the deposited data

How the results depend on the processing

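No Wnt gene passed in any of the 8 tests after quantile normalization, normexp background correction, with array quality weights, without a filter on dim probes, with only genes above background on all 12 arrays or with slide as a block, and none in the 2 comparisons run without the 3 Eng-Flk1- arrays. With the replicate number as a replicate block 0 Wnt genes passed as well, and the numbers did not pair the arrays: 1 of 18 same-numbered pairs had a correlation of deviations above 0.1 (median -0.0026). The count was 1 for Eng+Flk1- against Eng-Flk1- in the authors' table (Wnt10b), and 1 for Eng-Flk1+ against Eng-Flk1- with the mean over a gene's probes and, chosen after seeing the data, with each probe tested by itself (Lrp6). Leaving out each array in turn gave 0 to 1 Wnt genes in the tests over the 4 fractions, for Flk1, for Endoglin, for the interaction, for Eng+Flk1- against Eng-Flk1- and for Eng-Flk1+ against Eng-Flk1-. The gene was Wnt8a without Eng-Flk1- replicate 1, Lrp6 without Eng-Flk1- replicate 2, Sfrp1 or Wnt10b without replicate 3 and Lrp6 without Eng+Flk1- replicate 2. The lowest-p difference of each Wnt gene given on all arrays, and of Cer1, Frzb, Id2 and Cdx2, was refitted in each setting. Sfrp5 for Flk1 turned to -0.14 with normexp, and Sfrp4 for Eng+Flk1- against Eng-Flk1- to 1.25 with slide as a block. Of the other refits, 366 kept direction and side of the limit, 15 lost a call and 11 gained one. The losses were all of Cer1, Frzb and Id2, and the gains of Cdx2, Lrp6, Wnt10b and Wnt8a. The 25 of 36 Wnt genes below 0 for Endoglin were 22 to 28 under the other scalings. They were 23 to 26 with any array left out but 17 with slide as a block, where the direction did not hold. The median of all genes for Endoglin was -0.08 with normexp, 0.002 with quantile normalization and -0.26 in the authors' table. That of the Wnt genes was -0.25, -0.21 and -0.56. The authors' table moved the median of all genes for Eng-Flk1+ against Eng-Flk1- from -0.13 to -0.73 and for the interaction from 0.14 to 0.71. Id2 lost its call with the replicate block (adjusted p = 0.0592). Of the 36 Wnt genes tested, 27 were well above background on all 12 arrays, and levels of the others lie partly at background.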
